A study of Mus musculus with 8 samples.

Results

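The change that TAA caused in the liver was set against the change that APAP caused, gene by gene, across all 8 sequenced livers of the study. The quantity followed is the difference between the responses, which is the log2 fold change of TAA livers over fed PBS livers minus the log2 fold change of APAP livers over fasted PBS livers. A positive difference means that TAA moved the gene above where APAP moved it, relative to each model's own controls, and a negative difference means the reverse. The livers came from WT C57BL/6J male mice, 8 to 9 weeks old, 2 mice in each of 4 groups, with RNA taken 24 h after the dose. Fed mice received TAA intraperitoneally at 200 mg/kg, and fed mice given sterile PBS were their controls. Other mice went without food overnight, received APAP by the intragastric route at 500 mg/kg and were kept fasted for a further 6 h. Fasted mice that received PBS were their controls. The fast after APAP ended before RNA was taken at 24 h, so fasted below names the feeding state at dosing. Toxicant, dose, route, feeding state and count table all changed together between the models, so their parts in a difference cannot be told apart. Of 48286 genes present in both tables, 17381 had enough reads to be tested, by edgeR's quasi-likelihood test with Benjamini-Hochberg adjustment. That test supplied every adjusted p below unless another is named.

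Thioacetamide (TAA) and acetaminophen (APAP) both become toxic after oxidation by cytochrome P450 enzymes, which are most abundant in hepatocytes around the central vein, and both are used to produce acute liver failure (ALF) in mice. The reactive metabolite of APAP binds glutathione and then protein thiols, and mitochondrial damage follows. Metabolites of TAA bind proteins and lipids. Overnight fasting lowers hepatic glutathione and moves the liver from lipid synthesis to fatty acid oxidation, which is why mice are often fasted before APAP.

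The responses differed at an adjusted p under 0.05 for 1913 of 17381 genes (11% of those tested). The TAA change lay above the APAP change for 805 of them (4.63%) and below it for 1108 (6.37%). An unadjusted p under 0.05 was reached by 4639 genes. For comparison, 5986 genes (34.4%) were called after TAA, 2873 higher (16.5%) and 3113 lower (17.9%), and 6889 genes (39.6%) after APAP, 3635 higher (20.9%) and 3254 lower (18.7%). Shared changes mostly had no called difference. Of 3529 genes that rose in both models or fell in both, 3135 had no called difference, and 2180 of these had responses within 0.5 of each other on the log2 scale. The median width of the 95% interval of a difference was 1.735 on the log2 scale, and 3809 of the 15468 genes without a call had an estimate beyond 1, so a missing call does not show equal responses. Called differences had a median size of 1.44 and a smallest size of 0.583, with 1463 beyond 1 and 594 beyond 2. At the threshold, Tapbpl and Mlxip were the last genes called, with differences of -1.06 and -1.49, and Dpf3, Tasp1 and Lrrc32 the first left out, with differences of -2.90, -1.08 and 1.08.

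**Figure D1:**
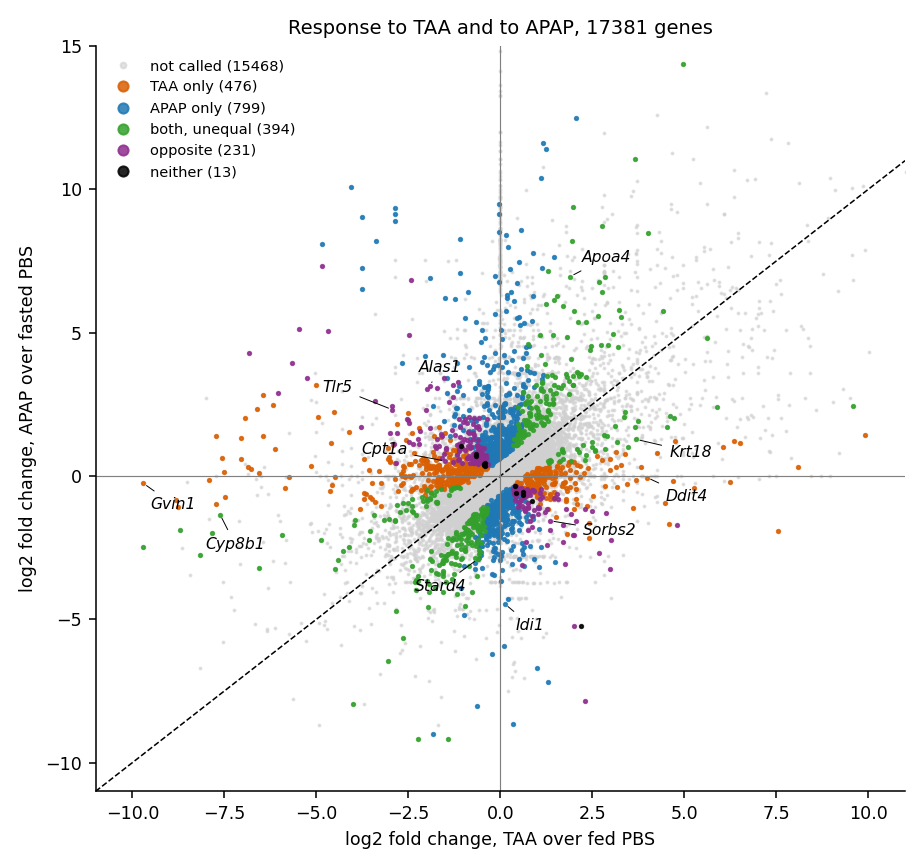
Each point is a gene, with its log2 fold change after TAA (over fed PBS) on the x axis and after APAP (over fasted PBS) on the y axis, coloured by class of called difference, and the dashed line marks equal responses (2 genes lie outside the axes). Alas1 and Tlr5 sit above the line at lower TAA and higher APAP values, Idi1 lies far below zero on the APAP axis alone, and Gvin1 lies far left on the TAA axis alone.

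Genes moved by a single toxicant were the largest group. After TAA alone, 182 genes rose and 294 fell, and the other response lay within 0.5 of no change on the log2 scale for 137 and 216 of these. After APAP alone, 455 rose and 344 fell, with the TAA response within 0.5 of no change for 344 and 293. Responses of the same direction and different size made up 394 genes: among risers, 155 rose more after APAP and 37 more after TAA, and among fallers, 148 fell more after APAP and 54 more after TAA. Opposite directions were called for 231 genes, 88 higher after TAA and lower after APAP and 143 the other way round. For 13 genes the difference was called and neither response was. The bar plot of classes gives these counts.

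**Figure D2:**
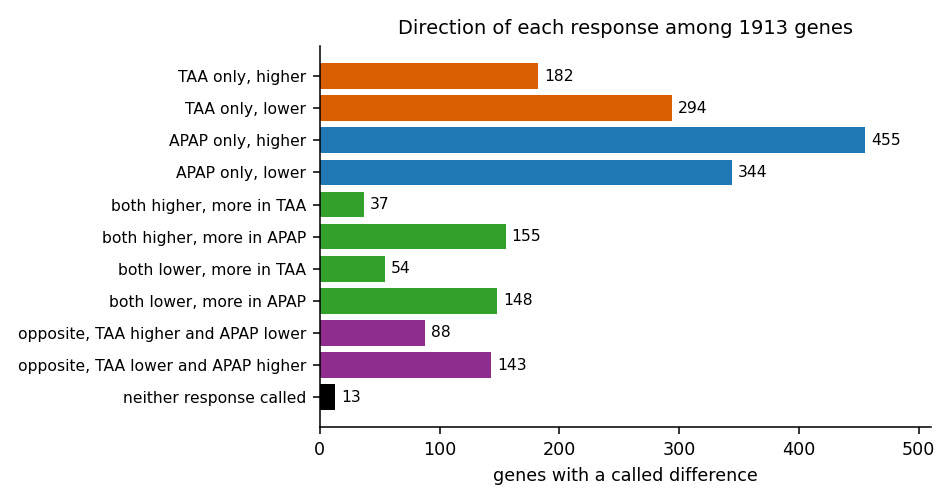
Bars give the number of genes in each class among the 1913 genes with a called difference, split by the direction in which each response was called. The 455 genes higher after APAP only form the longest bar, and the 37 genes raised by both and more by TAA the shortest among genes called in a response.

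The deposited totals were 35711238 to 41453751 counts per liver in the fed table and 22431889 to 27234512 in the fasted table. Levels below are CPM, counts scaled to a common library size by TMM, and a level set across the fed and fasted tables carries the difference in counting with it. Because the subtraction uses different controls, a difference can also move with the control livers. The gap between fasted and fed PBS livers was larger than the gap between APAP and TAA livers for 464 of the 1913 called genes (24.3%) and for 39.8% of all genes tested, so the control levels are given beside the treated ones. Hepatocyte markers summed to between 67770 and 146900 CPM in the 8 livers. In whole liver, fewer cells of a type and less RNA per cell cannot be told apart. Leaving out a liver and refitting kept the sign of all 1913 differences that could be tested. The count of calls then ran from 698 without fasted PBS replicate 1 to 2488 without TAA replicate 2. All 4 fits without a liver of the fasted table gave 867 calls or fewer (773 without fasted PBS replicate 2, 725 without APAP replicate 1 and 867 without APAP replicate 2). Genes named below kept their call without any single liver, unless a sentence says otherwise. Ltf, S100a8 and Hdc, named with the neutrophil markers, were not followed one by one through these fits.

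Cholesterol synthesis had the highest share of called differences among the 51 gene lists examined. The pathway turns acetyl-CoA into mevalonate, squalene and then sterols, and its genes are switched on together by the transcription factor SREBP2 when membrane sterol is low. Of 21 genes, 15 had a called difference and in all 15 the TAA response lay above the APAP response, against 4.63% of all genes. After APAP 18 of 21 fell (18.7% of all genes fell), while after TAA 6 fell and 1 rose (17.9% and 16.5%). The median log2 fold change was -2.58 after APAP and -0.20 after TAA, and the median difference was 2.10 against -0.06 over all genes. Leaving out any single liver gave 14 to 17 called genes.

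Idi1, which isomerises isopentenyl diphosphate, stood at 302 and 175 CPM in PBS livers and 304 and 217 in TAA livers, and at 283 and 260.1 in fasted PBS livers and 11.3 and 13.2 in APAP livers. The fed groups overlapped, the controls of both models overlapped, and both APAP livers were far below every other liver. The difference was 4.59 (approximate standard error 0.39, adjusted p = 0.000743). Nsdhl, which removes a sterol methyl group, behaved the same way, at 134 and 92.7 CPM in the PBS livers, 101 and 90.5 after TAA, 140.0 and 134 in the fasted PBS livers and 9.99 and 15.7 after APAP (difference 3.18, adjusted p = 0.00145). Mvk, mevalonate kinase, and Cyp51, the lanosterol demethylase, had differences of 2.64 and 2.89 (adjusted p = 0.00142 and 0.00178). For Mvk the log2 fold change was -2.71 after APAP and -0.08 after TAA. Pmvk, the next kinase of the pathway, fell in both models and further after APAP, by 1.80 on the log2 scale against a TAA change of -0.47 (difference 1.33, adjusted p = 0.00601). The TAA change of Pmvk had an adjusted p of 0.247 when livers were scaled by library totals. Hmgcs1, Sqle, Fdps, Msmo1, Fdft1, Lss, Acat2, Dhcr7 and Sc5d were also called, and are named here after their values were seen. Msmo1, a sterol oxidase, missed the threshold without PBS replicate 2, fasted PBS replicates 1 or 2 or APAP replicate 1 (adjusted p = 0.0515, 0.0564, 0.0538 and 0.071).

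Other steps of the pathway fell in both models with no called difference. Ebp, the sterol isomerase, fell from 205 and 218 to 104 and 111 CPM after TAA and from 249 and 229 to 121 and 111 after APAP, with a difference of 0.07 (95% interval -0.34 to 0.47). Tm7sf2, a sterol reductase, fell by 1.33 and by 1.18 on the log2 scale (difference -0.15, 95% interval -0.64 to 0.34).

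Genes that control sterol supply followed synthesis in part. Of 9 genes of uptake and SREBP control, 4 had a called difference, again with TAA above APAP in each (4.63% of all genes). Stard4, a carrier of cholesterol between membranes, fell after both, from 163 and 171 to 116 and 104 CPM and from 151 and 143 to 19.1 and 20.4 CPM. Its difference was 2.29 (adjusted p = 0.000417). Srebf2, which encodes SREBP2 itself, fell after APAP from 54.4 and 57.6 to 29.3 and 31.1 CPM and went from 84.1 and 75.4 to 99.3 and 84.7 after TAA (difference 1.09, adjusted p = 0.00797).

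Promoters of the called genes named above are shown because the cholesterol genes moved together. The sequences are RefSeq promoters of GRCm38.p6, from 250 bases before to 50 bases after the start, 5′ to 3′ on the gene's strand, with each CCAAT box (CCAAT or ATTGG, the site of the factor NF-Y, which acts beside SREBP2) in capitals. Idi1 is at chr13:8885356-8885655, plus strand, Mvk at chr5:114444019-114444318, plus strand, Cyp51 at chr5:4104648-4104947, minus strand and Nsdhl at chrX:72918271-72918570, plus strand.
Idi1: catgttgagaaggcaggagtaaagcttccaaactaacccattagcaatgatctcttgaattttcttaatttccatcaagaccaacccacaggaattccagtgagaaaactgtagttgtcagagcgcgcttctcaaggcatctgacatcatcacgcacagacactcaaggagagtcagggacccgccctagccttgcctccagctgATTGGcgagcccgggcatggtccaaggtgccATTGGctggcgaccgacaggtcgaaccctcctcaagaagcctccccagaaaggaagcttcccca
Mvk: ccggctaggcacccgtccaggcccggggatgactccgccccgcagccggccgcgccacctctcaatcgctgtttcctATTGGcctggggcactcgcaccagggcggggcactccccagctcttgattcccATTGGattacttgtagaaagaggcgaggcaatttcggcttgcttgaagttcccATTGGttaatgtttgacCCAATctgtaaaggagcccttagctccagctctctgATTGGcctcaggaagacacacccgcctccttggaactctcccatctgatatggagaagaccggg
Cyp51: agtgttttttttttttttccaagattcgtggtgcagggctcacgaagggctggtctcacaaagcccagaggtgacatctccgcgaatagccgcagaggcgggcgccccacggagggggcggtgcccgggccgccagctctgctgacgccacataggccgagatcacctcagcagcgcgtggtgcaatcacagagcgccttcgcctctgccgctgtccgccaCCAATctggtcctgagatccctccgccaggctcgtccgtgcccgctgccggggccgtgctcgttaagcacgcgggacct
Nsdhl: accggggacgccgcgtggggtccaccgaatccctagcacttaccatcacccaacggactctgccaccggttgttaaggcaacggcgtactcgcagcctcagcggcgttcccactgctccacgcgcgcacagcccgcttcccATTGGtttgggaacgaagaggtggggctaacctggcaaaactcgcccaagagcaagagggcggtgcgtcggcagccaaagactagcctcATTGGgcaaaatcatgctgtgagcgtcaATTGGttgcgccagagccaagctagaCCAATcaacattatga
A CCAAT box was found in 14 of the 16 promoters that the table held for the list, against 37.9% of the 27025 promoters in the table. It was in 9 of 11 promoters of genes with a called difference and in 5 of 5 without, so it did not separate them. The sterol regulatory element, searched as TCACNCCAC on either strand, was in 1 of the 16 and in 1.22% of all promoters. A match is a description of letters and not a binding site.

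Other genes of liver metabolism and secretion fell after APAP and not, or less, after TAA. Rdh11, a retinal reductase, stood at 90.3 and 72.8 CPM in the PBS livers, 89.8 and 95 after TAA, 82.1 and 103 in the fasted PBS livers and 19.3 and 18.8 after APAP (difference 2.46, adjusted p = 0.000743). Cyp2c70, which makes muricholic acids in mice, went from 643 and 530.3 to 106 and 81.5 CPM after APAP, while the fed groups overlapped, at 552 and 399 in PBS and 495 and 487 in TAA livers (difference 2.69, adjusted p = 0.00154). Crp, an acute phase pentraxin, fell by 2.92 on the log2 scale after APAP and had no change called after TAA, where the TAA livers at 355 and 196 CPM bracketed the controls at 288 and 262. Bhmt, which remethylates homocysteine from betaine, dropped from 5038 and 3694 to 333 and 581 CPM after APAP. In the fed table Bhmt stood at 2012 and 1804 in controls and 993 and 1389 after TAA, a change that was not called (adjusted p = 0.107). C8a, a chain of the complement attack complex, had responses of -0.13 and -1.57. Fasted controls of C8a stood at 752 and 774 CPM and fed controls at 400.4 and 408, so the fall after APAP began from the higher level.

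In 3 further genes both toxicants lowered the level and APAP lowered it more. Nr0b2, the repressor SHP that limits bile acid synthesis, fell from 40.6 and 46.3 to 2.25 and 1.52 CPM after APAP and from 24.9 and 32.2 to 19.2 and 10.2 after TAA (difference 3.57, adjusted p = 0.00394). Acly, which supplies acetyl-CoA for lipid synthesis, had responses of -2.44 after APAP and -0.67 after TAA. F11, coagulation factor XI, fell by 2.47 and by 0.97 on the log2 scale in the same order. With library totals, the TAA falls of Nr0b2 and Acly had adjusted p of 0.086 and 0.069.

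Fatty acid oxidation moved in the opposite sense to cholesterol synthesis. The nuclear receptor PPARα drives these genes during fasting, which after APAP had ended before the livers were taken. Of 31 genes, 10 had a called difference and in all 10 the TAA response lay below the APAP response, against 6.37% of all genes. After TAA 17 of 31 fell and 3 rose (17.9% and 16.5% of all genes), and after APAP 6 fell and 9 rose (18.7% and 20.9%). The median log2 fold change was -0.55 after TAA and 0.19 after APAP. The count rested on the fasted livers: it was 8 and 7 without PBS replicates 1 and 2, 8 and 11 without TAA replicates 1 and 2, 3 and 5 without fasted PBS replicates 1 and 2 and 5 and 4 without APAP replicates 1 and 2. Over the list, fasted controls stood above fed controls by a median of 0.443 on the log2 scale, and APAP livers above TAA livers by 1.41.

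Cpt1a, which admits long-chain fatty acids to mitochondria, changed in opposite directions. It stood at 468 and 557 CPM in PBS livers and 199 and 165 in TAA livers, and at 335 and 377 in fasted PBS livers and 490.3 and 529 in APAP livers. No groups overlapped within a table, and the difference was -2.01 (adjusted p = 0.00206). Acot2, a mitochondrial acyl-CoA thioesterase, rose after APAP only, from 2.75 and 4.14 to 55.0 and 78 CPM, against 4.36 and 5.74 in PBS and 6.48 and 9.82 in TAA livers. The TAA change of Acot2 passed the threshold with library totals (adjusted p = 0.0375). Plin2, a coat protein of lipid droplets, rose in both, and rose more after APAP, where it reached 4536 and 4561 CPM against 716 and 729.8 after TAA (difference -2.23, adjusted p = 0.0055). Pex11a, which divides peroxisomes, rose after APAP from 90.9 and 98.7 to 362 and 384 CPM. Its fall after TAA, from 56.5 and 61.4 to 47.5 and 43.4 CPM, was small and lost its call with library totals (adjusted p = 0.376). Slc25a20, the carnitine carrier, had a difference of -1.28 (adjusted p = 0.0103), which missed the threshold without fasted PBS replicate 1 (adjusted p = 0.0608).

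Apoa4, a lipoprotein component that rises with hepatic lipid, was among the genes of smallest p. It stood at 116 and 109 CPM in the PBS livers, 392 and 449 after TAA, 98.3 and 111 in the fasted PBS livers and 12069 and 13951 after APAP. The controls of both models lay between 98.3 and 116 CPM, both toxicants raised the gene, and the difference of -5.06 (approximate standard error 0.26, adjusted p = 0.000154) came from the size of the APAP rise. Elovl5, an elongase of polyunsaturated fatty acids, fell after TAA from 261 and 246 to 77.7 and 99.0 CPM and rose after APAP from 274 and 326 to 507 and 512.

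Alas1, the first and rate-limiting enzyme of heme synthesis, changed in opposite directions and had the smallest p of all genes. It stood at 925 and 1044 CPM in the PBS livers, 254 and 268 after TAA, 284 and 335 in the fasted PBS livers and 2747 and 2714 after APAP. Both TAA livers were below and both APAP livers above every control liver, and fed controls were above fasted controls, a gap that the difference of -5.06 includes (95% interval -5.60 to -4.52, adjusted p = 0.000137). Por, the reductase that feeds electrons to all microsomal P450 enzymes, fell after TAA from 435 and 501 to 219 and 336 CPM and rose after APAP from 342 and 300.0 to 799 and 788 (difference -2.06, adjusted p = 0.00484). Fmo2, a flavin monooxygenase, followed the same pattern at low level, with 2.89 and 6.39 CPM after TAA and 17.9 and 25.7 after APAP (difference -3.34, adjusted p = 0.00798). The P450 list as a whole did not share it, with 2 called differences above and 2 below among 26 genes, near the background.

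Mat1a, which makes S-adenosylmethionine in hepatocytes, fell after TAA from 2392 and 2461 to 793 and 742 CPM and rose after APAP from 1986 and 1773 to 3455 and 4394 (difference -2.72, adjusted p = 0.000899). In bile acid synthesis, Cyp8b1, the 12α-hydroxylase that sets the share of cholic acid, fell in both. It went from 378 and 366 to 1.12 and 2.67 CPM after TAA and from 279 and 377 to 140.0 and 117 after APAP, a difference of -6.27 (adjusted p = 0.000667). Control levels of Cyp8b1 overlapped between the tables.

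**Figure D3:**
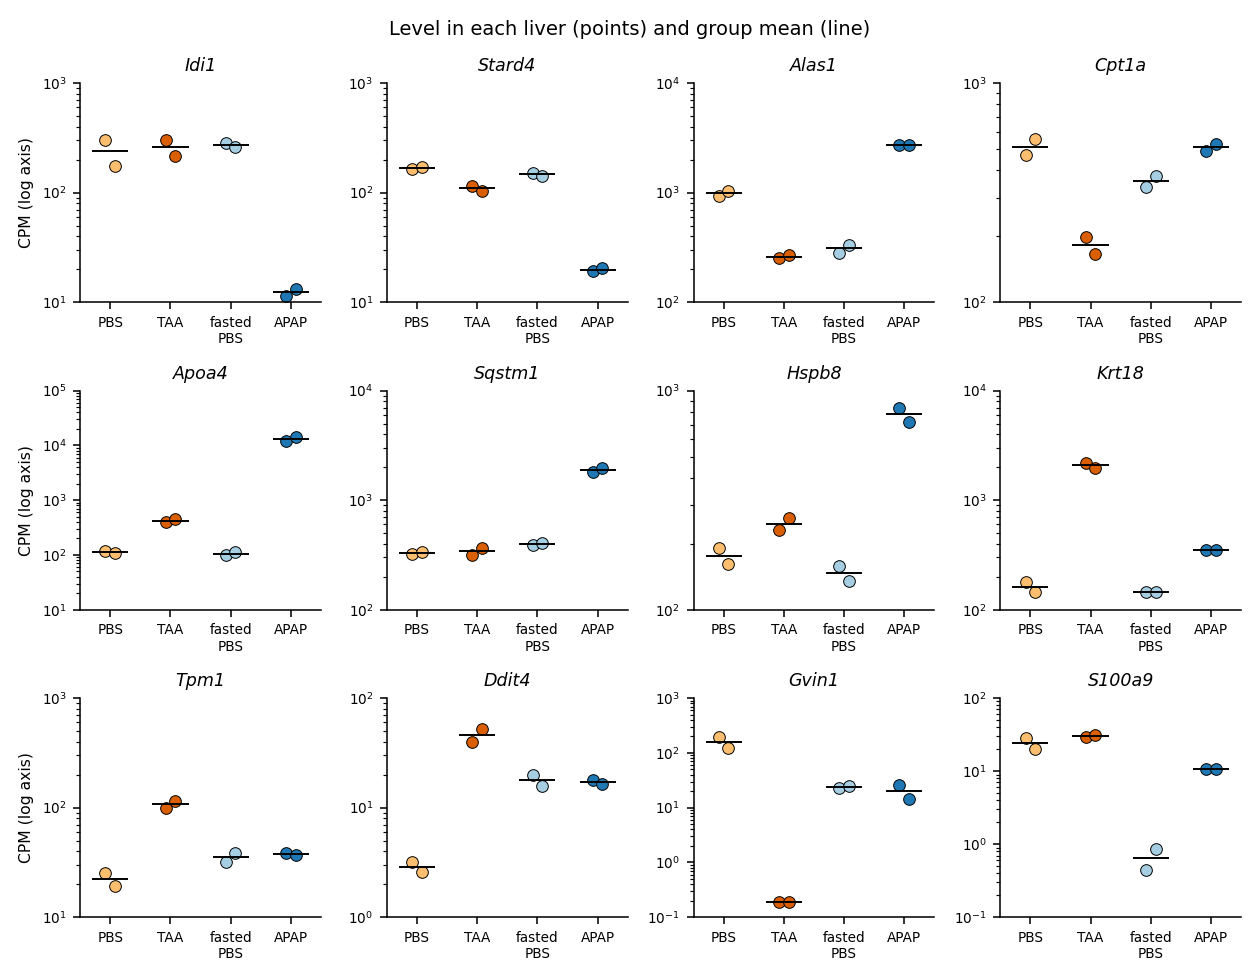
Points give the CPM of each liver on a log axis for 12 genes, and lines give the mean of the 2 livers of each group, from fed PBS and TAA to fasted PBS and APAP. Idi1 drops in the APAP livers alone, Stard4 falls furthest there, Alas1 and Cpt1a fall after TAA and rise after APAP, and the fed and fasted controls of Gvin1 and S100a9 are far apart.

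Targets of NRF2, the factor that induces antioxidant and glutathione genes, responded more to APAP. Of 26 genes, 8 had a called difference and all 8 lay below zero, against 6.37% of all genes. After APAP 15 rose and 3 fell (20.9% and 18.7% of all genes), and after TAA 10 rose and 3 fell (16.5% and 17.9%). The count was 4 and 5 without PBS replicates 1 and 2, 5 and 8 without TAA replicates 1 and 2, 3 and 4 without fasted PBS replicates 1 and 2 and 4 and 4 without APAP replicates 1 and 2. Sqstm1, the autophagy receptor p62 that also binds KEAP1, rose after APAP from 391 and 404 to 1803 and 1964 CPM, while PBS livers at 325 and 334 and TAA livers at 314 and 369 overlapped (difference -2.19, adjusted p = 0.00121). Hmox1, the heme oxygenase, rose in both models and reached similar levels. It went from 40.6 and 33.3 to 259.6 and 361 CPM after TAA and from 10.7 and 11.8 to 365 and 322 after APAP. The difference of -1.87 (adjusted p = 0.00464) came with lower fasted controls. Gsr, which recycles glutathione, had log2 responses of 1.24 to TAA and 1.34 to APAP, with a difference of -0.10 (95% interval -0.63 to 0.44).

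Other genes of small p rose after APAP only. Ctsl, the lysosomal protease cathepsin L, went from 578 and 609 to 3308 and 3016 CPM after APAP, and the fed groups overlapped at 359 and 378 in PBS and 342 and 411 in TAA livers (difference -2.38, adjusted p = 0.00104). Grn, which encodes progranulin, went from 137 and 153 to 634 and 613, against 158 and 160.2 in PBS and 169 and 166 in TAA livers (difference -2.03, adjusted p = 0.000795). Reps1, an endocytic adaptor, stood at 18.6 and 16.6 CPM in the PBS livers, 19.4 and 21.9 after TAA, 19.4 and 21.7 in the fasted PBS livers and 156 and 146 after APAP, with 6 livers between 16.6 and 21.9 CPM and only the APAP livers apart. The small TAA change of Reps1 passed the threshold with library totals (adjusted p = 0.0451). Map9, a microtubule-associated protein, and Efr3b, a membrane anchor of a lipid kinase, were under 1 CPM in both fasted PBS livers. They rose to 19.1 and 14.6 CPM and to 24.7 and 21.3 CPM after APAP (differences -5.05 and -5.82).

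Heat shock genes, the chaperones induced by HSF1, split by member. Of 22 genes, 4 had a called difference below zero and 2 above (6.37% and 4.63% of all genes), while 9 rose and 1 fell after TAA and 11 rose and 3 fell after APAP (16.5% and 20.9% of all genes rose). The count below zero was 2 and 3 without PBS replicates 1 and 2, 3 and 4 without TAA replicates 1 and 2, 3 and 2 without fasted PBS replicates 1 and 2 and 2 and 2 without APAP replicates 1 and 2. Hspb8, a small chaperone that works with BAG3, stood at 191 and 162 CPM in the PBS livers, 232 and 262 after TAA, 158 and 135 in the fasted PBS livers and 837 and 721 after APAP. The TAA rise was slight, the APAP rise clear of all other livers, and the difference was -1.93 (adjusted p = 0.0025). Dnajb1, a co-chaperone of HSP70, rose to 29.7 and 48.9 CPM after TAA and to 387 and 247 after APAP, from controls between 16 and 23.2 CPM (difference -2.67, adjusted p = 0.00637). Hspa4l, an HSP110 family member, fell after APAP only, from 19.5 and 22.4 to 7.0 and 6.02 CPM (difference 1.90, adjusted p = 0.00369). Hsp90aa1 rose by 1.92 and 2.21 on the log2 scale, with a difference of -0.29 (95% interval -0.74 to 0.16).

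The promoter of Hspb8 (chr5:116422815-116423114, minus strand, RefSeq, GRCm38.p6) is shown for its heat shock element, GAANNTTC on either strand, in capitals.
Hspb8: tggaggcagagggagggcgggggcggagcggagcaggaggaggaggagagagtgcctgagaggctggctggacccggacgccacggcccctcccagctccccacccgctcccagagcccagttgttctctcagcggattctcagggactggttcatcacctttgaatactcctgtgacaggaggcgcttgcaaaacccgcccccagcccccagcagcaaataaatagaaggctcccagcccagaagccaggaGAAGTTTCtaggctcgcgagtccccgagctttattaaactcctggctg
This motif was in 9 of 15 promoters of the list held in the table and in 7.95% of all promoters. It was in 2 of the 4 promoters of list genes with a called difference and in 7 of 11 without, so it did not separate them.

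The unfolded protein and integrated stress response, which slows translation and raises chaperones and amino acid supply, was measured by 37 genes. Of these, 17 rose after TAA and 21 after APAP (16.5% and 20.9% of all genes), and 2 differences were called above and 5 below zero (4.63% and 6.37%). The count below zero was 1 and 2 without PBS replicates 1 and 2, 4 and 4 without TAA replicates 1 and 2, 3 and 1 without fasted PBS replicates 1 and 2 and 0 and 2 without APAP replicates 1 and 2. Atf3, a stress-induced transcription factor, rose from 3.97 and 2.46 to 37.2 and 66.3 CPM after TAA and from 0.266 and 1.16 to 286 and 210.3 after APAP. Its difference of -4.47 (adjusted p = 0.0146) missed the threshold without APAP replicate 1 and with replicate number as a block (adjusted p = 0.0566 and 0.0681). Ppp1r15a, which restores translation by dephosphorylating eIF2α, rose by 2.78 and 2.52 (difference 0.26, 95% interval -1.03 to 1.55). Among 33 proteasome genes, 17 rose after APAP and 2 after TAA (20.9% and 16.5% of all genes rose). Of their differences, 2 were called below zero, near the background of 6.37%.

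The cytoskeleton responded more to TAA. Of 46 genes of keratins, tubulins and actin, 10 had a called difference above zero and 1 below (4.63% and 6.37% of all genes). After TAA 29 rose (16.5% of all genes), and after APAP 19 rose and 3 fell (20.9% and 18.7%). Leaving out single livers gave 7 to 14 above zero. Krt8 and Krt18 are the paired keratins of hepatocytes. Krt18 stood at 178 and 144 CPM in the PBS livers, 2189 and 1969 after TAA, 146 and 144 in the fasted PBS livers and 351 and 353 after APAP. Controls of both models were alike, both toxicants raised the gene, and the TAA livers were far above the APAP livers (difference 2.41, approximate standard error 0.23, adjusted p = 0.000917). Krt8 rose to 2704 and 2486 CPM after TAA and 755 and 699.9 after APAP, from controls between 190.1 and 228 CPM (difference 1.95, adjusted p = 0.00176).

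Tubulin and actin-binding genes differed by member. Tpm1, a tropomyosin, rose after TAA from 25.3 and 19.3 to 100.2 and 116 CPM, while fasted PBS livers at 31.9 and 38.6 and APAP livers at 38.8 and 37.3 overlapped (difference 2.17, adjusted p = 0.00149). Tubb5, a β-tubulin, rose after TAA only, to 145 and 148 CPM against 63.1 to 75.4 in the other 6 livers (difference 1.28, adjusted p = 0.00292). Tuba1b, an α-tubulin with near-identical paralogs between which reads may be split, rose after TAA from 52.2 and 49.0 to 129 and 150.2 CPM and fell after APAP from 74.6 and 74.7 to 41.6 and 45.2 (difference 2.24). Tagln, an actin-binding protein of smooth muscle and activated stellate cells, had log2 responses of 3.46 to TAA and 1.02 to APAP (difference 2.44, adjusted p = 0.00875). Krt23, a keratin of stressed and biliary epithelium, went the other way, rising from 3.28 and 3.13 to 41.4 and 60.7 CPM after APAP and standing at 0.487 and 0.683 in PBS and 0.583 and 0.715 in TAA livers (difference -3.84, adjusted p = 0.00134). Tubb2a rose by 3.31 and 3.40, with a difference of -0.09 (95% interval -1.0 to 0.82). Nid1, a basement membrane glycoprotein outside this list, rose from 15.5 and 15.5 to 196 and 217 CPM after TAA and from 12.4 and 11.3 to 51.8 and 37.5 after APAP (difference 1.82, adjusted p = 0.0032).

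Stellate cell and fibroblast markers, 27 in number, gave 3 called differences above zero, Tagln among them, and 5 below (4.63% and 6.37% of all genes). The count below zero was 3 and 3 without PBS replicates 1 and 2, 4 and 9 without TAA replicates 1 and 2, 1 and 2 without fasted PBS replicates 1 and 2 and 1 and 1 without APAP replicates 1 and 2, and that above zero was 3 and 2 without PBS replicates 1 and 2, 5 and 4 without TAA replicates 1 and 2, 2 and 1 without fasted PBS replicates 1 and 2 and 1 and 3 without APAP replicates 1 and 2. Of these markers 8 rose and 7 fell after TAA (16.5% and 17.9% of all genes), and 7 rose and 3 fell after APAP (20.9% and 18.7%). Hand2, a transcription factor of stellate cells, fell after TAA to 2.54 and 4.10 CPM from 8.62 and 9.98 and rose after APAP to 12.1 and 10.8 from 5.42 and 6.27 (difference -2.45, adjusted p = 0.00494). The part of these cells in the cytoskeletal result was not tested.

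Targets of p53, the DNA damage factor, were raised more by TAA. Of 26 genes, 9 had a called difference above zero and 2 below (4.63% and 6.37% of all genes). After TAA 16 rose and 3 fell, and after APAP 10 rose and 1 fell (16.5% and 20.9% of all genes rose), with median log2 fold changes of 1.21 and 0.35. The count above zero was 9 and 5 without PBS replicates 1 and 2, 8 and 9 without TAA replicates 1 and 2, 5 and 4 without fasted PBS replicates 1 and 2 and 5 and 4 without APAP replicates 1 and 2. The count below zero was 2 without TAA replicate 1 and 0 or 1 without any other liver. Bax, the pore-forming death effector, rose after TAA from 11.8 and 10.2 to 33.5 and 36.3 CPM. After APAP Bax stood at 15.8 and 18.6 against 12.9 and 14.7, a change that was not called (difference 1.34, adjusted p = 0.0071). Ccng1, cyclin G1, stood at 28.3 and 29.4 CPM in the PBS livers, 56.7 and 49.0 after TAA, 35.7 and 34.5 in the fasted PBS livers and 28.8 and 29.7 after APAP (difference 1.14, adjusted p = 0.00522). Other targets had no called difference. Cdkn1a, the cell cycle inhibitor p21, rose from 3.07 and 2.29 to 193 and 218 CPM after TAA and from 3.46 and 4.30 to 256 and 196 after APAP (difference 0.39, 95% interval -0.25 to 1.03). Mdm2, the ligase that degrades p53, rose by 1.32 and 1.57 (difference -0.26, 95% interval -0.72 to 0.21).

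Of 12 genes of growth arrest and DNA damage, 2 differences were called above zero and 2 below (4.63% and 6.37% of all genes). In this list 8 rose and 1 fell after TAA (16.5% and 17.9% of all genes), and 5 rose and 3 fell after APAP (20.9% and 18.7%). Ddit4, an inhibitor of mTORC1 signalling, stood at 3.19 and 2.59 CPM in the PBS livers, 39.9 and 52.0 after TAA, 19.8 and 15.9 in the fasted PBS livers and 17.9 and 16.4 after APAP. It rose after TAA only, and the difference of 4.05 (approximate standard error 0.27, adjusted p = 0.000376) stood beside fasted controls that were above fed controls. Gadd45a, a DNA damage sensor, rose in both and more after APAP, to 91.4 and 70.0 CPM against 17.8 and 32.2 after TAA, from controls between 2.48 and 7.15 CPM (difference -3.04, adjusted p = 0.00447). Outside the growth arrest genes, Adcy1, an adenylyl cyclase, rose after TAA only, from 0.609 and 0.513 to 8.19 and 7.70 CPM (difference 3.5, adjusted p = 0.00138). Cad, the enzyme that starts pyrimidine synthesis, rose by 2.33 after TAA and 0.74 after APAP (difference 1.59, adjusted p = 0.00297).

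Interferon-inducible genes fell after TAA. These GTPases, helicases and antigen presentation genes rise with interferon signalling. Of 40 genes, 34 fell after TAA (17.9% of all genes fell), while 13 fell and 4 rose after APAP (18.7% and 20.9%). The difference was called for 11, all below zero (6.37% of all genes). The count depended on single livers and was 8 and 21 without PBS replicates 1 and 2, 6 and 9 without TAA replicates 1 and 2, 1 and 3 without fasted PBS replicates 1 and 2 and 3 and 7 without APAP replicates 1 and 2. The control livers were far apart for this list. Summed over its genes, the level was 5771 and 2409 CPM in the PBS livers, 934 and 1072 after TAA, 1109 and 1306 in the fasted PBS livers and 1079 and 890.5 after APAP. Both fed PBS livers were above the other 6, and fasted PBS livers were above the TAA and APAP livers, which overlapped. The median gap of fasted to fed controls was -1.92 on the log2 scale and that of APAP to TAA livers -0.597.

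Gvin1, a very large interferon-inducible GTPase with close paralogs, stood at 199 and 121 CPM in the PBS livers, 0.187 and 0.191 after TAA, 22.9 and 24.8 in the fasted PBS livers and 25.7 and 14.3 after APAP. TAA livers had almost none, below the fasted livers as well as below fed controls, and the difference was -9.45 (95% interval -10.76 to -8.13, adjusted p = 0.000396). Gbp11, a guanylate-binding protein of a duplicated family, was high in the fed controls alone. It stood at 149.8 and 159 CPM in the PBS livers, against 2.19 and 3.17 after TAA, 5.46 and 5.76 in fasted PBS and 5.75 and 2.75 after APAP, so the other 6 livers lay between 2.19 and 5.76 CPM (difference -5.44, adjusted p = 0.000759). Rsad2, the antiviral viperin, rose after APAP from 7.41 and 9.60 to 96.4 and 50.5 CPM and had no change called after TAA, at 13.3 and 12.7 in PBS and 9.19 and 10.7 in TAA livers (difference -3.5, adjusted p = 0.00294). Ifit1, which binds foreign RNA caps, fell after TAA from 38.9 and 26.9 to 4.69 and 6.17 CPM. Its difference of -2.56 (adjusted p = 0.0129) missed the threshold without fasted PBS replicate 1 (adjusted p = 0.0646). Ifih1, the RNA sensor MDA5, fell by 1.39 and by 1.34 on the log2 scale in the TAA and APAP models (difference -0.05, 95% interval -0.59 to 0.49).

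Antigen presentation followed the same course. Of 15 genes, 12 fell after TAA (17.9% of all genes fell), and 3 fell and 2 rose after APAP (18.7% and 20.9%). The difference was called for 6, all below zero (6.37% of all genes), or for 3 to 6 when a liver was left out. Summed over these genes, the level was 7216 and 6866 CPM in PBS livers and 3580 and 3536 after TAA. It was 3918 and 4100 CPM in fasted PBS livers and 3439 and 3235 after APAP, so only the fed PBS livers stood far apart. H2-D1, a class I heavy chain, fell after TAA from 1243 and 1312 to 744 and 664 CPM and rose after APAP from 536 and 631 to 915 and 871 (difference -1.47, adjusted p = 0.00549). The count fell to 3 without fasted PBS replicate 1 and without APAP replicate 1. Cd1d1, which presents lipids to NKT cells, stood at 275 and 248 CPM in the PBS livers, 78.8 and 81.1 after TAA, 221 and 226 in the fasted PBS livers and 199.8 and 205 after APAP, with only the TAA livers apart from the rest (difference -1.56, adjusted p = 0.00175). Reads of class I genes can be shared between near-identical copies, and single members of this family are uncertain. B2m, their common light chain, fell by 0.75 and by 0.85 on the log2 scale (difference 0.10, 95% interval -0.37 to 0.57).

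**Figure D4:**
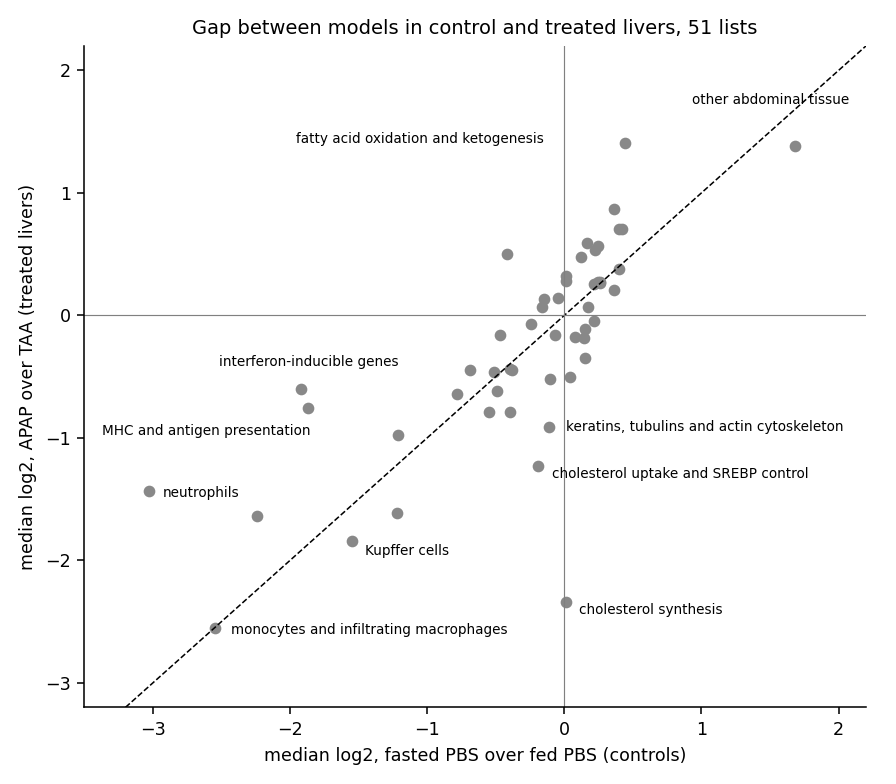
Each point is a gene list, with the median log2 gap between fasted and fed PBS livers on the x axis and the median gap between APAP and TAA livers on the y axis, and the dashed line marks equal gaps, where the responses would not differ. Cholesterol synthesis lies at a control gap near 0.00956 and a treated gap of -2.34, whereas neutrophil, interferon and antigen presentation lists lie above the line at control gaps of -3.03, -1.92 and -1.87.

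Neutrophil markers differed between the models in both their rises and their falls. Of 18 genes, 9 rose and 5 fell after TAA (16.5% and 17.9% of all genes), and 12 rose after APAP (20.9%). The difference was called for 7, all below zero (6.37% of all genes). In 5 of the 7 the APAP response was a called rise, and in the other 2, Ngp and Ltf, the TAA response was a called fall and the APAP response was not called. The count was 4 and 6 without PBS replicates 1 and 2, 5 and 5 without TAA replicates 1 and 2, 3 and 4 without fasted PBS replicates 1 and 2 and 3 and 4 without APAP replicates 1 and 2. The summed level was 206 and 145 CPM after TAA and 163 and 195 after APAP. G0s2 and Hdc, which other cells also express, made up most of the APAP sum, with means of 94.1 and 46.7 CPM against 41.3 and 12.8 after TAA. Other members were lower after APAP, such as S100a8 with a mean of 4.76 CPM against 21.8. These 3 were named after their values were seen. Fed controls, at 148 and 129 CPM, were far above fasted controls, at 47.1 and 47.9. Of all 20 genes of the list, tested or not, 6 had 0 counts in both fasted PBS livers. S100a9, a calcium-binding protein abundant in neutrophils, stood at 28.6 and 20.1 CPM in the PBS livers, 29.1 and 31.3 after TAA, 0.444 and 0.859 in the fasted PBS livers and 10.6 and 10.6 after APAP. Both APAP livers were above fasted controls and still below both fed controls, and the difference was -3.73 (adjusted p = 0.00125). Ngp, a granule protein made in immature neutrophils, fell after TAA from 16.9 and 15 to 0.513 and 0.50 CPM, and was below 1 CPM in all fasted livers. Csf3r, the receptor for G-CSF, rose by 1.59 after TAA and 0.93 after APAP (difference 0.66, 95% interval -0.18 to 1.5). Of 23 monocyte and macrophage markers, 11 rose after TAA, and 9 rose and 2 fell after APAP (16.5% and 20.9% of all genes rose). For these markers the median gap of fasted to fed controls was -2.55 on the log2 scale, and that of APAP to TAA livers -2.55. Cd68 alone had a called difference. Estimates for other members lay on both sides of zero (10 above, 12 below). Cd68, a lysosomal protein of macrophages, rose to 39.4 and 37.4 CPM after TAA and 25 and 21.1 after APAP, from 15.3 and 17.3 in fed and 3.15 and 3.49 in fasted controls (difference -1.56, adjusted p = 0.00395). How far the immune cells of the fed controls set the interferon result was not tested.

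Of 24 transcription factors of hepatocyte identity, 13 fell and 1 rose after TAA (17.9% and 16.5% of all genes). After APAP 9 fell and 2 rose (18.7% and 20.9%). Of their differences, 6 were called below zero and 2 above (6.37% and 4.63% of all genes). The 6 became 4 and 2 without PBS replicates 1 and 2, 2 and 4 without TAA replicates 1 and 2, 1 and 0 without fasted PBS replicates 1 and 2 and 1 and 1 without APAP replicates 1 and 2. Esrra, a regulator of mitochondrial genes, fell after TAA from 33.9 and 34.2 to 18.4 and 18.7 CPM, while the fasted livers overlapped, at 23.5 and 22.3 in PBS and 23.4 and 24.5 in APAP livers (difference -0.94, adjusted p = 0.00927). That call missed the threshold without fasted PBS replicate 2 (adjusted p = 0.0535). Nfix, a nuclear factor I member outside the list, fell in both. It stood at 117 and 124 CPM in the PBS livers, 7.39 and 8.22 after TAA, 93.8 and 88.3 in the fasted PBS livers and 32.9 and 30.4 after APAP, and the TAA livers were the lowest (difference -2.42, approximate standard error 0.17, adjusted p = 0.000381).

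Clock genes gave 5 called differences of 19, all below zero (6.37% of all genes). That count was 2 and 2 without PBS replicates 1 and 2, 3 and 3 without TAA replicates 1 and 2, 4 and 2 without fasted PBS replicates 1 and 2 and 2 and 3 without APAP replicates 1 and 2. Cry1, a repressor of the clock, rose to 33 and 24.6 CPM after APAP from 5.15 and 4.65, and to 10.2 and 9.91 after TAA from 7.41 and 5.32 (difference -1.89, adjusted p = 0.00729). Arntl, the activator BMAL1, rose by 1.75 and 1.84 (difference -0.08, 95% interval -0.97 to 0.80).

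Opposite changes also appeared in genes outside these pathways. Tlr5, the flagellin receptor, stood at 10.6 and 14.3 CPM in the PBS livers, 1.77 and 1.45 after TAA, 11.1 and 10.5 in the fasted PBS livers and 62.5 and 44.8 after APAP. The controls of both models were alike, TAA lowered the gene and APAP raised it (difference -5.26, approximate standard error 0.32, adjusted p = 0.000324). Sorbs2, an adaptor of the actin cytoskeleton, rose after TAA from 51.5 and 44.7 to 120.2 and 126 CPM and fell after APAP from 67.1 and 74.4 to 23.4 and 24.5 (difference 2.92, adjusted p = 0.000324). Cgn, the tight junction protein cingulin, did the same, from 17.0 and 20.8 to 51.0 and 45.6 CPM after TAA and from 26.7 and 32.3 to 7.78 and 8.32 CPM after APAP (difference 3.23). Alcam, a cell adhesion molecule, had responses of 0.79 and -1.59 (difference 2.38, adjusted p = 0.000417). Junction and adhesion genes were not a list here, and these 3 were named for their small p alone.

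Further genes with opposite changes came from other lists. Igfbp1, an insulin-suppressed binding protein of IGF, rose after TAA from 87.7 and 101 to 579.5 and 472 CPM. After APAP it stood at 102 and 189 against 238 and 439 in fasted controls, whose level was above that of fed controls (difference 3.70, adjusted p = 0.00566), and the APAP fall had an adjusted p of 0.059 with library totals. Ccl9, a chemokine of myeloid cells, rose to 105 and 107 CPM after TAA and fell to 18.6 and 13.6 after APAP, from controls between 54.8 and 64.6 CPM (difference 2.64, adjusted p = 0.000677). In the reverse direction, Epb41, a protein of the membrane skeleton, fell after TAA from 153 and 153 to 75.3 and 95.4 CPM and rose after APAP from 112 and 97.9 to 445 and 418 (difference -2.88, adjusted p = 0.000417). Socs2, a feedback inhibitor of growth hormone signalling, had responses of -1.12 and 0.87 (difference -1.99, adjusted p = 0.0032).

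The following genes fell after TAA with no change called after APAP. Tmem170b, a membrane protein, stood at 22.5 and 22.3 CPM in the PBS livers, 3.82 and 4.50 after TAA, 19.6 and 16.4 in the fasted PBS livers and 17.0 and 18.4 after APAP (difference -2.4, adjusted p = 0.000915). Phc3, a polycomb repressor subunit, went from 29.3 and 23.6 to 4.50 and 5.74 CPM after TAA, with fasted PBS livers at 27.9 and 32.0 and APAP livers at 30.7 and 30.0. Miga2, which promotes mitochondrial fusion, went from 50.1 and 56.8 to 13 and 14.9 CPM, with fasted PBS livers at 40.9 and 36.1 and APAP livers at 35.9 and 44.5 (differences -2.39 and -2.0). For all 3 the 6 remaining livers were above both TAA livers.

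A single mitochondrially encoded gene stood out of 13. mt-Atp6 rose after TAA from 1116 and 1103 to 4255 and 4053 CPM and stood at 999 and 876 in fasted PBS and 584 and 843 after APAP (difference 2.30, adjusted p = 0.00278). It overlaps mt-Atp8 and lies beside mt-Co3 on the same transcript, which had TAA changes of -0.08 and -0.35 with no call, so the count of mt-Atp6 is uncertain.

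Several programs moved in both models with few called differences. Ribosome biogenesis rose for 30 of 32 genes after TAA and 27 after APAP (16.5% and 20.9% of all genes rose). Of its differences, 1 was called above and 3 below zero, near the 4.63% and 6.37% of all genes. Immediate early and AP-1 genes rose for 27 and 21 of 33, with 1 difference called in each direction. Amino acid degradation fell for 38 and 36 of 42 (17.9% and 18.7% of all genes fell). It had 4 differences called above and 2 below zero, against 4.63% and 6.37% of all genes. Its share above zero was thus over the background. Gnl3, a nucleolar GTPase, rose by 1.77 and 1.77 on the log2 scale (difference -0.01, 95% interval -0.52 to 0.51). Amdhd1, of histidine breakdown, fell by 1.97 and by 1.93 on the log2 scale (difference -0.04, 95% interval -0.77 to 0.69). Abcc2, which exports conjugated bilirubin, had responses of -1.01 and -1.01 (95% interval of the difference -0.56 to 0.56).

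**Figure D5:**
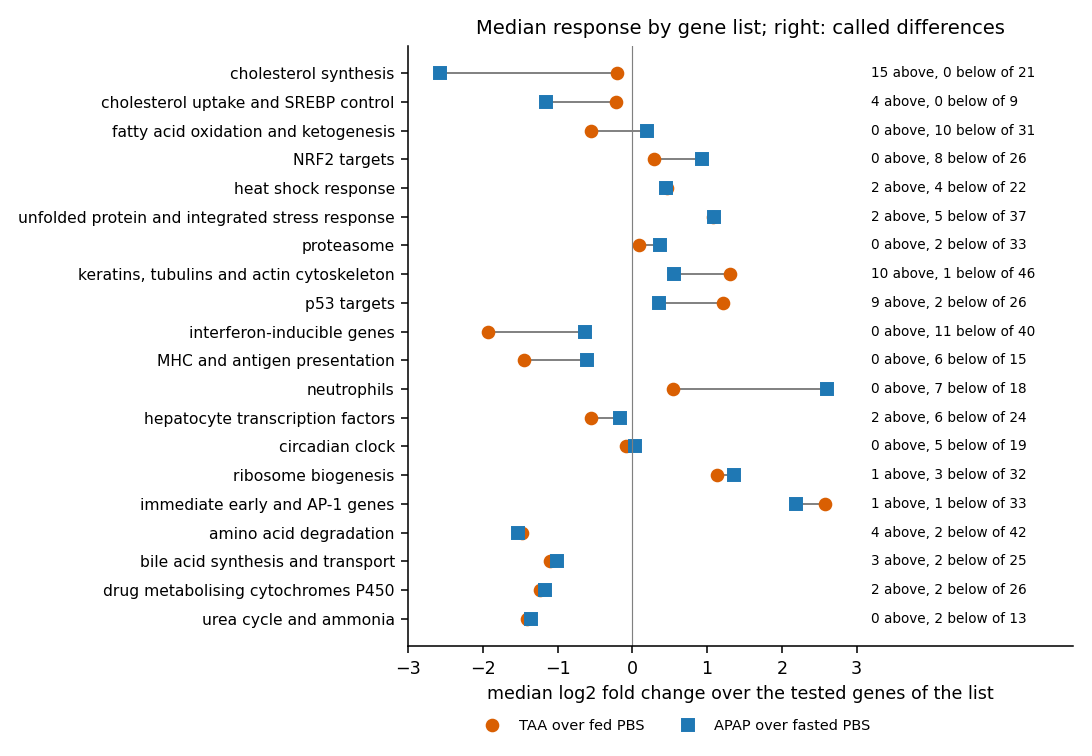
Circles give the median log2 fold change after TAA and squares that after APAP over the tested genes of 20 lists, and the text at the right gives how many of them had a called difference above or below zero. The markers are far apart for cholesterol synthesis and for neutrophils, whose APAP median includes genes at 0 counts in fasted PBS livers, and nearly coincide for amino acid degradation, heat shock and the unfolded protein response.

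The genes that the study followed were checked in the same fit. Of 20 tested, 12 rose and 1 fell after TAA (16.5% and 17.9% of all genes), and 14 rose and 2 fell after APAP (20.9% and 18.7%). Among the 20, 4 differences were called above zero and 3 below (4.63% and 6.37% of all genes). The 4 above became 3 and 3 without PBS replicates 1 and 2, 3 and 4 without TAA replicates 1 and 2, 1 and 2 without fasted PBS replicates 1 and 2 and 2 and 2 without APAP replicates 1 and 2. Tnfrsf12a, the TWEAK receptor, rose from 3.83 and 4.44 to 186 and 218 CPM after TAA and from 4.71 and 5.05 to 138 and 139 after APAP. Both treated pairs were far above all controls, and the TAA rise was the larger by 0.78 on the log2 scale (95% interval 0.33 to 1.23, adjusted p = 0.039). That call was lost without PBS replicate 1, fasted PBS replicates 1 or 2 or APAP replicates 1 or 2 (adjusted p 0.0788, 0.116, 0.151, 0.134 and 0.113) and with limma voom (adjusted p = 0.0825). Tnfsf12, which encodes TWEAK, had responses of -0.53 and 0.08 (difference -0.61, 95% interval -1.31 to 0.08). With library totals these responses had adjusted p of 0.272 and 0.472. They are RNA values, whereas the study reported its rise of TWEAK in mice from protein, by liver blots and serum assay.

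Of 37 genes of apoptosis and lytic death, 5 differences were called above zero and 3 below (4.63% and 6.37% of all genes). The count above was 5 and 3 without PBS replicates 1 and 2, 4 and 5 without TAA replicates 1 and 2, 2 and 3 without fasted PBS replicates 1 and 2 and 3 and 3 without APAP replicates 1 and 2. The count below was 5 without PBS replicate 2, 2 without fasted PBS replicate 1 and 3 without any other liver. Ripk1, the kinase that links death receptors to apoptosis and necroptosis, rose after APAP from 32.4 and 31.1 to 62.4 and 53.8 CPM, and stood at 36.2 and 32.8 in PBS and 27.5 and 26.9 in TAA livers, where no change was called (difference -1.21, adjusted p = 0.00475). Casp8, the initiator caspase that acts beside it, rose after APAP from 22.9 and 20.3 to 51.5 and 44.3 CPM and overlapped in the fed table, at 30.8 and 36.1 in PBS and 32.3 and 33.2 in TAA livers (difference -1.18, adjusted p = 0.00794). Gsdmd, the gasdermin of pyroptosis, fell by 0.94 after TAA and by 1.84 after APAP (adjusted p of the difference = 0.0448), and the call was lost in 6 of 8 omissions of a single liver. Those were PBS replicate 2, TAA replicate 1, both fasted PBS livers and both APAP livers, with adjusted p from 0.0656 to 0.17. It was also lost with library totals, without the filter on low counts and without robust shrinkage (adjusted p = 0.0599, 0.0517 and 0.0513).

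No difference was called for 13 of the 20. Leaving out a liver gave a call for 3 of them, Ddit3 without TAA replicate 2, Mlkl without PBS replicate 2 and Cxcl2 without TAA replicate 1 (adjusted p = 0.0489, 0.0237 and 0.0363). Their estimates ran from -1.59 for Ccl2, a monocyte chemoattractant (95% interval -3.46 to 0.28), to 1.28 for Gadd45b, a stress sensor (95% interval -0.23 to 2.79). Between them lay Cxcl2 (-1.42), Mlkl (-1.39), Ddit3 (-0.93), Il1b (-0.84), Mt1 (-0.81), Gsdme (-0.61), Ripk3 (-0.49), Mt2 (-0.36) and Tnf (0.36), beside Tnfsf12 and Cdkn1a given above. Mt2, a metallothionein that binds zinc, rose by 4.64 and 4.99, and Ddit3, the stress factor CHOP, by 2.33 and 3.26.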

How the data were processed

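Liver RNA from 8 mice was sequenced. Per the labels, the tools were Trim Galore, HISAT2 and featureCounts with GRCm38/mm10 (roles and versions not stated). The authors deposited counts for fed PBS and TAA livers and, in a separate table, estimated counts with fractions for fasted PBS and APAP livers. Whole counts had been assumed, so the estimated counts were rounded. The tables were joined by Ensembl ID (48286 genes), and 548 assembled loci were left out. In R 4.3.3, genes passing a minimum count of 10 and a minimum total of 15 (17381) were scaled by TMM and fitted over all 4 groups with edgeR 4.0.16 (robust quasi-likelihood, Benjamini-Hochberg, threshold 0.05). Classes were set by which responses passed the threshold. Standard errors are the log2 value over the root of F, and are approximate. P-values measure the spread between 2 livers a group.

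Named genes were those of smallest p in each class and in each gene list, and list members with the closest responses. These were at 5 CPM or more in the highest group, with no group at 0 and a gene symbol. Every gene the study followed was named as well, with no such limit on its level. Some of these are not reported here. Members and lists were chosen with earlier results of these data known. The method was tested on simulated counts, with 100 genes changed 4-fold and 100 changed 2-fold among 17381. There 16.9% of calls were false, more than the threshold of 0.05 aims for. DESeq2 1.42.0, limma 3.58.1 voom, other scalings and filters, unrounded counts, a replicate block and leaving out each liver were tried. Figures were drawn with matplotlib.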

Additional observations from a re-analysis of the deposited data

Results flagged for a closer look

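The TAA and APAP responses differed by their own test, the contrast between responses, for 1913 genes, which is why this count appears here. Among the genes named above, 19 changed in opposite directions in the models, with both responses and the difference called. The log2 difference, TAA response minus APAP response, was above zero for Sorbs2 (2.92), Cgn (3.23), Alcam (2.38), Tuba1b (2.24), Ccl9 (2.64) and Igfbp1 (3.70). It was below zero for Alas1 (-5.06), Tlr5 (-5.26), Epb41 (-2.88), Pex11a (-2.35), Mat1a (-2.72), Elovl5 (-2.28), Cpt1a (-2.01), Socs2 (-1.99), Por (-2.06), Hand2 (-2.45), H2-D1 (-1.47), Fmo2 (-3.34) and Slc25a20 (-1.28). Slc25a20 missed the threshold without fasted PBS replicate 1, as given above. The fall of Pex11a after TAA and that of Igfbp1 after APAP missed it with library totals.

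Loci that the fasted table lists under assembly names, with no gene identifier, were outside every comparison. They held 2.43% and 2.46% of the counts of the APAP livers, against 0.457% and 0.498% of those of the fasted PBS livers. The fed table holds no such loci, so no TAA value can be set beside them.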

How the results depend on the processing

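The direction of all 1913 called differences was kept wherever they could be tested. The count was 2477 with DESeq2 (1851 shared with the reported set), 2163 with limma voom, 1769 with library totals, 1742 without the filter on low counts, 1979 with a minimum count of 50, 1837 without robust shrinkage and 1915 with unrounded counts. With replicate number as a block it was 1476 (1310 shared). Same-numbered livers correlated at -0.0196 to 0.0417 in their deviations from the group means, over all tested genes. No pairing by number was seen there, which does not exclude it in some genes. Scaling by library totals moved the median TAA response by 0.202, the median APAP response by 0.146 and the median difference by 0.0555 on the log2 scale, and changed the sign of 0 called genes. With each table fitted alone, 150 genes changed in opposite directions. Leaving out 1 liver at a time gave 698 to 2488 called differences, 277 to 1259 above zero and 421 to 1229 below. It gave 4236 to 5351 genes called after TAA and 4444 to 7402 after APAP. Genes called after TAA only numbered 176 to 593, after APAP only 280 to 1062, in both to different degree 123 to 515 and in opposite directions 106 to 272. With 2 livers a group, simulated 4-fold differences were recovered for 64% of 100 changed genes and 2-fold differences for 5% of another 100. Far fewer genes were changed there than were called in the data, and all groups began at equal levels. The adjusted threshold is stricter in such a setting, so these shares do not carry over to the data. Differences of moderate size can still go uncalled.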
